A study of Saccharomyces cerevisiae with 3 samples.

Results

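The 10 genes described here encode polyubiquitin (UBI4), the ubiquitin-activating enzyme (UBA1) and 8 ubiquitin-conjugating enzymes (UBC1, UBC4, UBC5, UBC6, UBC7, UBC8, UBC11 and UBC13) of the budding yeast Saccharomyces cerevisiae. They were chosen by name among the 6256 genes of a 2-colour array. The name in the files gave 9 of them, and UBC7 was found through its systematic name YMR022W, since the files call it QRI8. Each of the 10 had 1 probe; UBI4, UBC5, UBC6, UBC7, UBC11 and UBC13 were spotted 2 times and UBC1, UBC4, UBC8 and UBA1 once.

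The study asked how the linker histone Hho1p affects transcription before and after a heat shock. Its groups, with 1 array each, were a strain lacking HHO1 (HHO1 delta in the labels) heated to 37 °C for 15 min, the same strain grown at 25 °C, and the wild type heated to 37 °C for 15 min. Each was hybridised with wild-type RNA from 25 °C, which is the control of every comparison. Cultures were grown in rich medium and taken at an optical density of 0.5. The labels name neither the allele nor the strain background, nor whether the wild-type RNA from 25 °C was 1 extract on all 3 arrays. The deletion strain's RNA carried Cy3 on both of its arrays, and the heated wild type carried Cy5. No difference has a replicate check or a test, and the SD given with a gene is between its 2 spots. In such bulk RNA, fewer expressing cells and less RNA per cell cannot be told apart.

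Ubiquitin is a small protein that is attached to other proteins and marks many of them for breakdown by the proteasome. Uba1 activates ubiquitin and hands it to a conjugating enzyme (E2), which works with a ubiquitin ligase (E3) on the substrate. UBI4 encodes a chain of ubiquitin units joined head to tail and is a well-known stress gene of yeast, whereas the other ubiquitin genes encode ubiquitin fused to a ribosomal protein. Heat unfolds proteins, and Ubc4 and Ubc5 are the closely related E2s known for the breakdown of short-lived and abnormal proteins.

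A log2 ratio sets a sample's signal against that of wild type at 25 °C on the same array after background correction and loess normalisation. A gene counts as risen or fallen, here called the size rule, when the mean of its spots reaches 1 or -1 on that scale and no spot falls short of 0.58 in the same direction. The labels were checked on HHO1, whose log2 ratio was -4.26 ± 0.03 in the heated deletion strain and -4.34 ± 0.16 in the deletion strain at 25 °C (SD, 2 spots each). Of gene spots, 90.0% to 90.2% were well above background in Cy3 and 94.3% to 95.1% in Cy5, and no spot was saturated. Both deletion arrays came from 1 slide and 1 scan and the wild-type array from another, so at 37 °C the effects of slide, scan and dye and that of strain cannot be told apart. No sample was repeated with the dyes swapped. The effect of dye thus cannot be told apart from that of strain at 25 °C, or from that of heat in the wild type. The difference of heat responses includes that wild-type ratio.

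In the heated deletion strain, set against the deletion strain grown at 25 °C, 2 of the 10 genes rose, UBI4 and UBC8, and none fell. Among all 5918 genes measured in that comparison 11.5% rose and 15.8% fell. In heated wild-type cells 3 of the 10 rose, UBI4, UBC7 and UBC4, and none fell, where 11.6% of 5974 genes rose and 16.4% fell. The median log2 ratio of the 10 genes was 0.44 in the deletion strain, where all genes had a median of 0.00, and 0.50 in the wild type, where it was also 0.00. Without UBI4 the other 9 genes had a median of 0.41 in the deletion mutant and of 0.21 in the wild type.

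**Figure D1:**
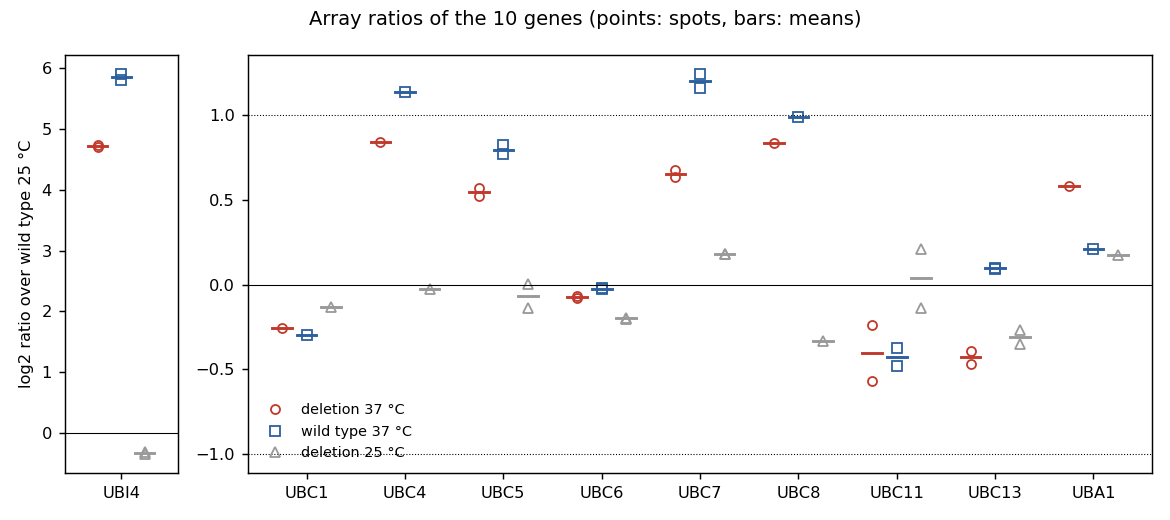
Log2 ratio over wild type at 25 °C (vertical axis, a separate scale for UBI4 at the left) for each gene on each array, with open symbols for spots, bars for their mean and dotted lines at 1 and -1. UBI4 lies at 4.73 in the heated deletion strain and 5.86 in the heated wild type, while the other 9 genes lie between -0.43 and 1.20; for UBC11 all spots are drawn, including those not well above background.

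UBI4, the polyubiquitin gene, had the largest response of the 10 in both strains. In the heated deletion strain its spots gave signals above background of 94539 and 84320 in Cy3, against 11273 and 10072 in Cy5 for wild type at 25 °C on that array. In the unheated deletion strain they gave 3047 and 3322 in Cy3, against 11645 and 12991 in Cy5 for wild type at 25 °C. Signals of different dyes are not on 1 scale, so the response was taken from the normalised ratios, which were 4.74 and 4.71 after heat and -0.32 and -0.35 at 25 °C. The heat response of UBI4 in the deletion strain was thus 5.06, or 33.4-fold, with an SD between spots under 0.01, and it ranked 21 of 5918 genes from the top.

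In heated wild-type cells the UBI4 spots gave Cy5 signals of 241642 and 230337, against 1899 and 1666 in Cy3 for wild type at 25 °C on the same array. The spot log2 ratios were 5.80 and 5.91, a mean of 5.86 ± 0.08 or 58.0-fold, and UBI4 ranked 7 of 5974 genes. In both strains each spot was higher after heat than before it, but the spots of an array are not replicates of a strain. The share of all genes with spots so separated was not counted. In the wild type the heated and unheated RNA also carried opposite dyes. Under 9 other ways of deriving the ratios the response ranged from 4.44 to 5.23 in the deletion strain and from 4.74 to 6.16 in the wild type, and UBI4 passed the size rule in all of them.

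The genes closest to UBI4 over the 3 array ratios were HSP82, RGI1 and SOL4, at Euclidean distances of 0.58, 0.64 and 0.67 among 5510 genes. HSP82, which encodes an Hsp90 chaperone, was at 4.69 in the heated deletion strain, -0.08 in the deletion strain at 25 °C and 5.34 in the heated wild type. The nearest of the other 9 genes was UBC4, at a distance of 6.12, where it ranked 625 of 5510.

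**Figure D2:**
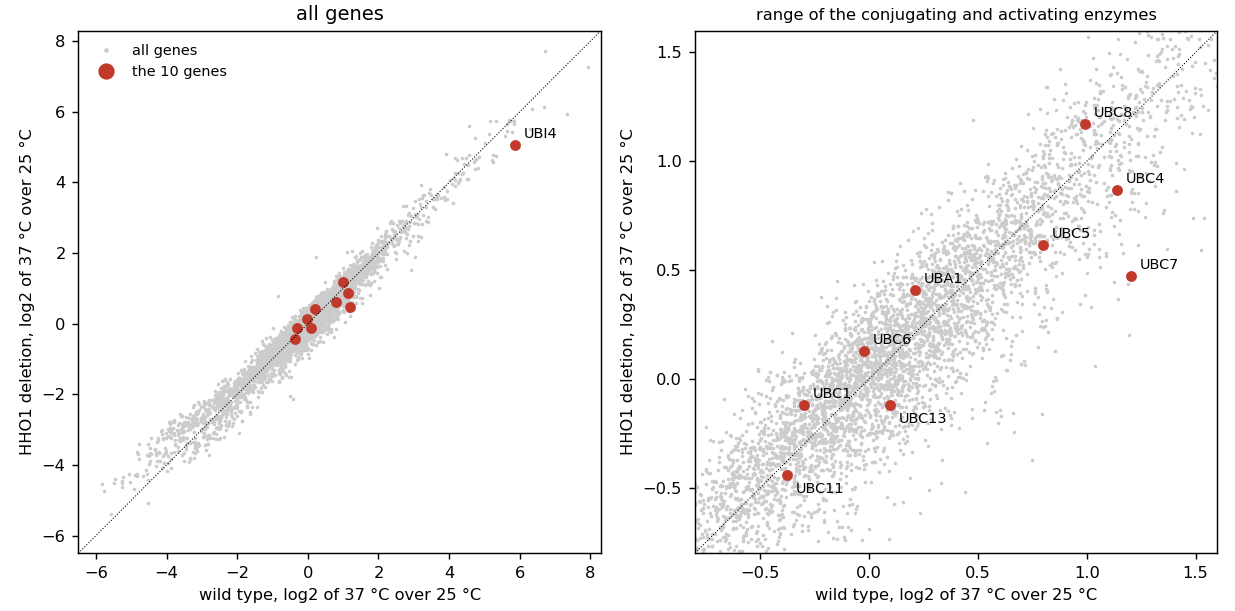
Heat response of every gene (grey) and of the 10 genes (red) in the wild type (horizontal axis) and in the HHO1 deletion (vertical axis), as log2 of 37 °C over 25 °C; the dotted line marks equal responses. UBI4 stands at 5.06 in the deletion and 5.86 in the wild type at the left, and at the right UBC7, at 0.47 and 1.20, lies farthest from the line among the enzymes.

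The E2 genes UBC4 and UBC5 had positive ratios after heat in both strains. UBC4 had 4010 in Cy3 in the heated deletion strain, against 5489 in Cy5 for wild type at 25 °C, and 10823 in Cy5 in the heated wild type, against 2046 in Cy3. Its heat response was 0.87 in the deletion strain, below the size rule, and 1.14 or 2.20-fold in the wild type, where it rose. In the deletion strain it reached 1.04 when channels of the same dye were compared.

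UBC5 was dimmer, with 143 and 156 in Cy3 in the heated deletion strain, against 207 and 218 for wild type at 25 °C, and with 363 and 432 in Cy5 in the heated wild type, against 59.0 and 72.7. Its heat response was 0.61 ± 0.07 in the deletion mutant and 0.80 ± 0.03 in the wild type (SD, 2 spots), below the size rule in both. In the wild type UBC5 passed the rule without the offset of the background correction, at 1.00, with the scanner's processed signals, at 1.50, and in the authors' deposited table of log2 ratios, at 1.00. UBC4 and UBC5 are near copies in sequence and the probes' sequences were not used here, so how far each probe reads the other transcript was not tested.

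UBC7 and UBC6 encode E2s that act at the endoplasmic reticulum, where misfolded proteins are removed. UBC7 had 1634 and 1538 in Cy3 in the heated deletion strain, against 2331 and 2246 in Cy5 for wild type at 25 °C, and 4880 and 5406 in Cy5 in the heated wild type, against 838 and 874 in Cy3. Its heat response was 0.47 ± 0.03 in the deletion strain, below the size rule, and 1.20 ± 0.06 or 2.30-fold in the wild type, where it rose. In the deletion strain UBC7 reached 0.78 when channels of the same dye were compared. Between both Cy5 readings of wild type at 25 °C, the denominators of the deletion arrays, it differed by 0.31. Its spots lay at 0.63 to 0.67 over wild type at 25 °C in the heated deletion strain and at 1.16 to 1.25 in the heated wild type. These are spots of 1 array each and not replicates of a strain.

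UBC6 stayed near 0, at 0.13 in the deletion mutant and -0.03 in the wild type, each with an SD between spots under 0.01. It was positive in the wild type with the scanner's processed signals, with median centring, at 0.42, and in the deposited table. The ligase genes SSM4 (Doa10) and HRD1, which work with these E2s, and CUE1, which anchors Ubc7, were looked up after the values of UBC7 had been seen. SSM4 was at -0.91 in the deletion mutant and -0.73 in the wild type, HRD1 at 0.80 and 0.74, and CUE1 at 0.18 and -0.04, and none passed the size rule.

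UBC8 encodes an E2 known for the breakdown of gluconeogenic enzymes after glucose is supplied. Its single spot gave 143 in Cy3 in the heated deletion strain, against 129 in Cy5 for wild type at 25 °C, and 30.1 in Cy3 in the unheated deletion strain, against 178 in Cy5 for wild type at 25 °C. The heated wild type gave 359 in Cy5, against 42.7 in Cy3. UBC8 rose in the deletion strain, by 1.17 or 2.25-fold, and in the wild type it was at 0.99, just below the size rule, so the calls differ by strain while the values lie close; that difference, 0.18, was not tested. Over the 9 other settings the values of this dim spot ranged from 0.75 to 2.51 in the deletion strain and from 0.71 to 1.96 in the wild type. In the deletion strain the call was lost at 0.76 without background subtraction, at 0.75 with median centring and at 0.87 in the same-dye comparison.

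For UBC1, UBC13 and UBA1 no ratio reached 0.58 in size in either heat response. UBC1, an E2 also known for the breakdown of short-lived proteins, had a heat response of -0.12 in the deletion mutant and -0.30 in the wild type. UBC13, whose product joins with Mms2 to build chains that signal in DNA damage tolerance, was at -0.12 ± 0.11 in the deletion mutant and 0.09 ± 0.01 in the wild type. UBA1, the gene of the E1 that feeds all these E2s, was at 0.41 in the deletion mutant and 0.21 in the wild type, from 1 bright spot.

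UBC11, which resembles E2s of animals that act on cyclins, was close to background in every channel. Neither of its spots was well above background in the heated deletion strain or the heated wild type, where their signals lay between -21.1 and 1.53. In wild type at 25 °C they lay between 5.72 and 46.6, and 5 of 6 spot readings were well above background. A bound was taken on the log2 scale of single channels after loess and quantile scaling of intensities across arrays. For the heated deletion strain, the lowest signal that counted as well above background was 6.47. It lay 1.09-fold below the mean of wild type at 25 °C, 6.59. That mean pools both dyes and its lowest reading was 6.51, so a minimum fall of UBC11 is not established. No bound is given for the heated wild type, where it came out larger than the ratio measured within that array. Such bounds are open to dye bias.

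**Figure D3:**
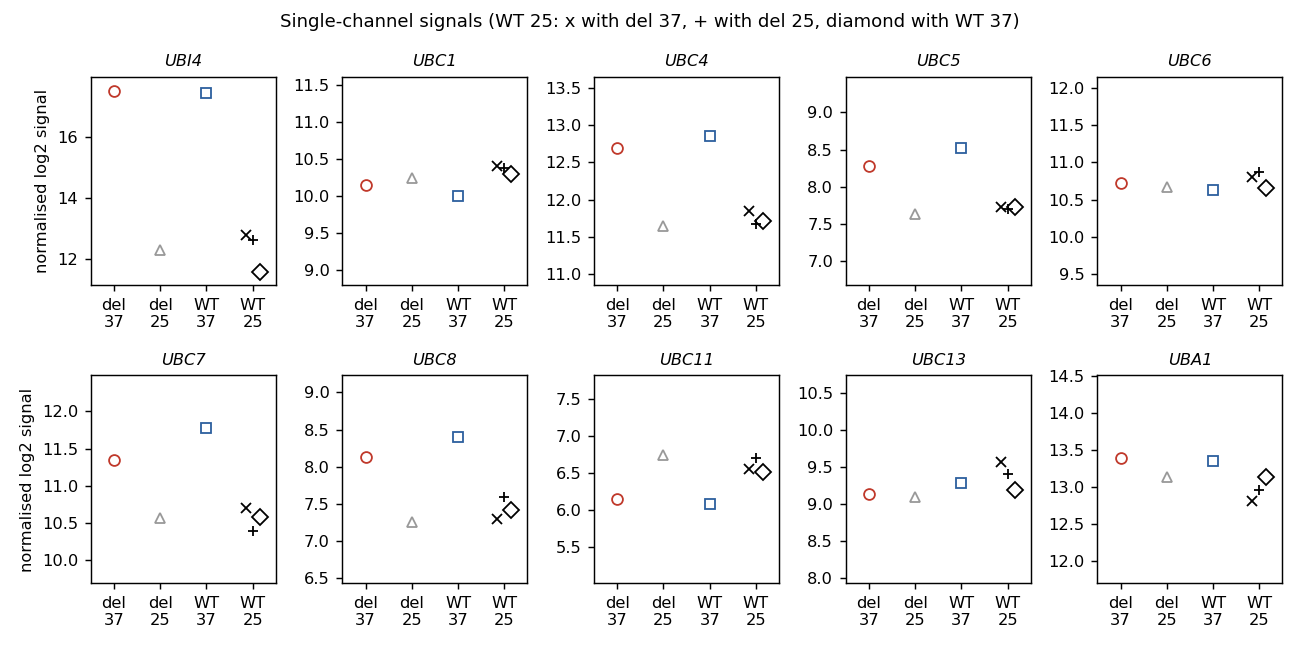
Normalised log2 signal of single channels for each gene in the deletion strain at 37 °C and 25 °C and the wild type at 37 °C and 25 °C, means over spots, with the wild type at 25 °C shown for each of its 3 channels. The 3 wild-type 25 °C readings of UBI4 span 1.20, from 11.60 to 12.80, while those of the other 9 genes span 0.03 to 0.38.

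Single-channel signals, scaled across arrays, gave the level of each gene in every group, on a log2 scale that cannot be compared between genes. UBI4 was at 17.53 in the heated deletion strain, 17.46 in the heated wild type and 12.30 in the unheated deletion strain. The wild type at 25 °C gave 12.80 and 12.64 in Cy5 on the deletion arrays and 11.60 in Cy3 on the wild-type array. The heated groups thus lay above every reading at 25 °C. Their 2 levels are of opposite dyes, so dye and strain cannot be told apart in them. The spread of the wild type at 25 °C was set by its Cy3 reading. The deletion strain at 25 °C, in Cy3, lay above that reading and below both Cy5 readings.

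The 3 readings of wild type at 25 °C served as a measure of array, dye and any difference of RNA extract together. The Cy3 reading minus the mean of both Cy5 readings was -1.12 for UBI4, the second largest in size among 5872 genes, of which only 2 reached 1. Over all these genes the SD of this difference was 0.23. For the other 9 genes it ranged from -0.30 for UBC13 to 0.25 for UBA1. Between both Cy5 readings UBI4 differed by 0.17, where the SD over genes was 0.22.

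UBC7 was at 11.35 in the heated deletion strain, below the 11.78 of the heated wild type, and at 10.57 in the deletion strain at 25 °C, inside the 10.39 to 10.69 of the wild type at 25 °C. UBC4 was at 12.69 in the heated deletion strain and 12.85 in the heated wild type, which differed by less than the range of 0.18 between the wild-type readings at 25 °C, and at 25 °C both strains lay between 11.65 and 11.85. UBC5 and UBC8 were likewise higher in both heated groups than in any reading at 25 °C. The share of all genes with this order was not counted, and the heated groups carried opposite dyes. UBC5 passed the size rule in neither heat response, and UBC8 rests on a single dim spot. UBC1 was at 10.15 in the heated deletion strain and lower still in the heated wild type, and both lay below its 10.30 to 10.40 in the wild type at 25 °C. The unheated deletion strain, at 10.24, lay below that range as well.

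At 25 °C none of the 10 genes passed the size rule between the deletion strain and the wild type, where 0.0501% of 5984 genes were higher and 0.0167% lower. The log2 ratios ran from -0.33 for UBI4 to 0.18 for UBC7, with a median of -0.10 where all genes had -0.02. UBI4 had Cy3 signals of 3047 and 3322 in the deletion strain, against Cy5 signals of 11645 and 12991 in the wild type, and its ratio of -0.33 ± 0.02 became 0.70 in the same-dye comparison. That comparison uses the low Cy3 reading of wild type at 25 °C from the wild-type array as its denominator. UBC8, at -0.33, and UBC13, at -0.31 ± 0.06, were next, and UBC13 kept its sign in all 9 other settings, from -0.39 to -0.10. Of all genes 3.83% had a lower ratio than UBI4, 3.88% a lower ratio than UBC8 and 4.96% a lower ratio than UBC13.

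At 37 °C UBI4 was lower in the deletion strain than in the wild type, at -1.13 ± 0.10, and it was the only 1 of the 10 to pass the size rule, where 0.187% of 5895 genes were higher and 0.407% lower. This difference sets 4.73 ± 0.02 in the heated deletion strain against 5.86 ± 0.08 in the heated wild type, both over wild type at 25 °C and with opposite dyes. In the same-dye comparison, where each heated channel was set against wild type at 25 °C of its own dye on another array, the sign turned to 1.19. The reading of wild type at 25 °C that lay 1.12 below the others is the denominator of the wild-type ratio in the main setting. In the same-dye comparison that reading is instead the denominator for the heated deletion strain, so it enters both values, on opposite sides. Which sign is right was not tested. The single-channel levels of the heated samples were 17.53 and 17.46. Without background subtraction the ratio was -0.98 and no longer passed.

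UBC7 and UBC13 had the next lowest ratios at 37 °C, -0.55 ± 0.09 and -0.53 ± 0.06. UBC7 kept its sign in all 9 other settings, from -1.27 with median centring, under which all genes had a median of -0.37, to -0.47 in the same-dye comparison. UBC13 was at 0.15 in the same-dye comparison. UBA1 had the highest ratio of the 10, 0.37, and was at -0.47 with median centring and below 0 also in the same-dye comparison. The other 6 genes lay between -0.30 for UBC4 and 0.05 for UBC1, and the median of the 10 was -0.22 where all genes had 0.01.

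**Figure D4:**
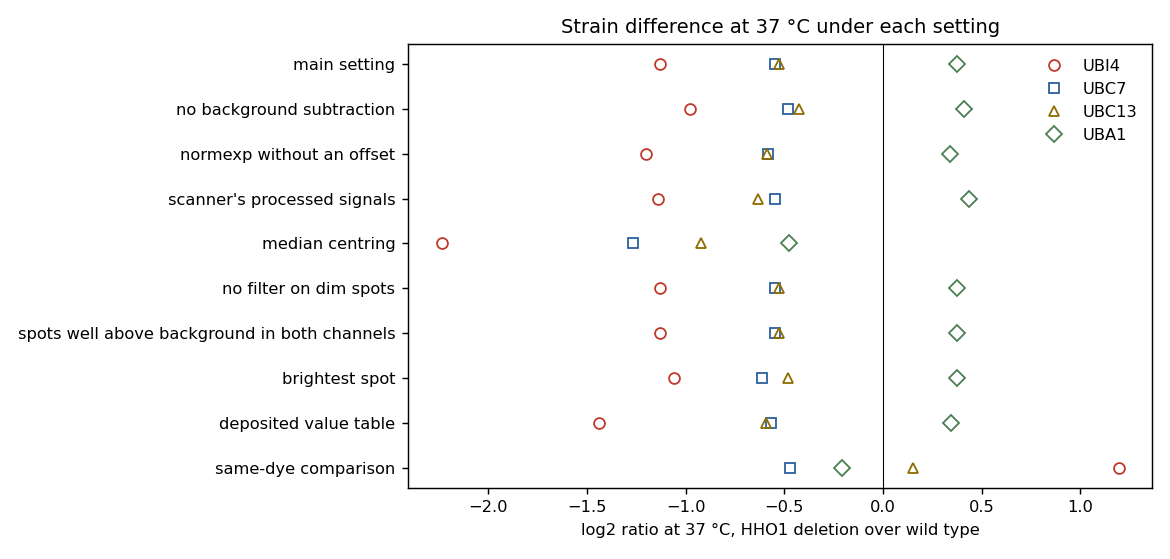
Log2 ratio of the HHO1 deletion over the wild type at 37 °C (horizontal axis) for UBI4, UBC7, UBC13 and UBA1 under the main setting and 9 other settings (rows). UBC7 lies below 0 in every row, from -1.27 to -0.47, whereas UBI4 moves from -1.13 in the main setting to 1.19 in the same-dye comparison.

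The difference between heat responses, deletion strain minus wild type, was -0.80 ± 0.08 for UBI4 and -0.73 ± 0.09 for UBC7. None of the 10 genes passed the size rule, where 0.375% of 5872 genes were higher and 0.153% lower. Only 0.664% of genes had a lower difference than UBI4 and 1.07% a lower difference than UBC7. For UBC7 the difference was negative in all 9 other settings, from -1.29 to -0.46, and for UBI4 it was 0.49 in the same-dye comparison. Settings that change only the filter on dim spots keep every UBC7 spot and so return its main value. The remaining 8 genes lay between -0.27 for UBC4 and 0.20 for UBA1. The difference rests on 3 arrays.

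The rest of the ubiquitin pathway was described by 7 lists. Over all genes, 11.5% rose with heat and 15.8% fell in the deletion strain, and 11.6% rose and 16.4% fell in the wild type. The other ubiquitin genes, RPL40A, RPL40B and RPS31, encode ubiquitin fused to a ribosomal protein, and all 3 fell with heat in both strains. RPL40A was at -2.07 in the deletion mutant and -1.41 in the wild type, RPL40B at -1.81 and -1.50, and RPS31 at -2.23 ± 0.08 and -1.73 ± 0.09. These ratios were opposite in sign to those of UBI4 in both strains, and all 3 genes fell under every alternative as well. The probes' sequences were not used here, so how far the UBI4 probe reads ubiquitin units of the other genes was not tested. RPS31 was also lower in the deletion strain than in the wild type at 37 °C, at -1.07 ± 0.17, but not past the rule in 4 alternatives: without background subtraction, at -0.93, with the scanner's processed signals, at -0.98, with the brightest spot, at -0.95, and in the same-dye comparison, at -0.61.

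Of 6 other E2 and E2-like genes none passed the size rule in the wild type, where 11.6% of all genes rose and 16.4% fell. In the deletion strain, where 15.8% of all genes fell, UBC9, the E2 of the ubiquitin-like protein SUMO, fell, at -1.17 ± 0.02, with -0.86 ± 0.02 in the wild type. MMS2, the partner of UBC13, was at 0.53 in the deletion mutant and 0.85 in the wild type. The cell-cycle E2 gene CDC34 was at 0.55 and 0.48, RAD6, an E2 of DNA repair and of the N-degron pathway, at 0.45 and 0.47, PEX4, of peroxisomes, at -0.34 and -0.05, and UBC12, of the Rub1 pathway, at -0.21 and -0.29.

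Among the activating enzymes of ubiquitin-like proteins, ULA1, a subunit of the Rub1-activating enzyme, rose by 1.33 ± 0.07 in the deletion mutant and by 1.25 ± 0.02 in the wild type. Its partner UBA3 was at 0.48 and 0.42. The SUMO-activating subunits were at -0.37 and -0.61 for UBA2 and 0.70 and 0.41 for AOS1, and UBA4 was at 0.06 and 0.21. Of 6 ubiquitin-like modifiers ATG8, which builds autophagosome membranes, rose by 2.49 ± 0.09 in the deletion mutant and by 2.06 ± 0.04 in the wild type. URM1, a sulfur carrier in tRNA modification, fell to -1.27 in the deletion mutant and -1.18 in the wild type. SMT3, the gene of SUMO, RUB1, HUB1 and ATG12 lay between -0.39 and 0.23 in the deletion strain and between -0.12 and 0.30 in the wild type.

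Of 44 E3 ligase genes 3 rose in the deletion mutant and 4 in the wild type, and none fell in either, where over all genes 11.5% rose and 15.8% fell in the deletion mutant and 11.6% rose and 16.4% fell in the wild type. HUL4, a HECT-type ligase, was at 1.92 in the deletion mutant and 1.84 in the wild type, and HUL5, which acts at the proteasome, at 1.20 and 1.20. ASR1 was at 1.21 and 1.1, and ETP1 was at 0.84 in the deletion strain, below the rule, and at 1.11 in the wild type. The E3 medians were 0.27 in the deletion mutant and 0.20 in the wild type, and the number that rose in the wild type was 2 without background subtraction and 9 with median centring. Of 21 genes of deubiquitinating enzymes and of a cofactor, 3 rose and 4 fell in the deletion strain, and 2 rose and 4 fell in the wild type. These counts are near those same shares over all genes. UBP10, a nuclear enzyme that acts on histone H2B, was at -1.77 and -1.85, OTU2 at -1.08 and -1.33, UBP15 at 1.25 and 1.11, and DOA4, which recycles ubiquitin at endosomes, at 1.20 and 1.1. OTU1 passed the rule in the deletion strain, at 1.26, with 0.99 in the wild type, and so did UBP13, at -1.30 with -0.81.

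Of 18 genes of the Cdc48 complex and of shuttle factors, which carry ubiquitinated proteins to the proteasome, 6 rose and none fell in each strain, where over all genes 11.5% rose and 15.8% fell in the deletion mutant and 11.6% rose and 16.4% fell in the wild type. The medians were 0.81 in the deletion mutant and 0.70 in the wild type, against 0.00 over all genes in both, and with median centring 3 rose in the deletion mutant and 9 in the wild type. UBX6, a cofactor gene of Cdc48, was at 1.70 in the deletion mutant and 1.92 in the wild type, CUE5, which binds ubiquitin in the autophagy of aggregates, at 1.16 and 1.43, DDI1 at 1.21 and 1.23, and UBX7 at 1.25 and 1.23. UBX5 was at 1.16 and 1.19. Within these lists, 1 gene passed the size rule between the strains at 37 °C, RPS31, and none at 25 °C. Over all genes 0.187% were higher and 0.407% lower at 37 °C, and 0.0501% were higher and 0.0167% lower at 25 °C.

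**Figure D5:**
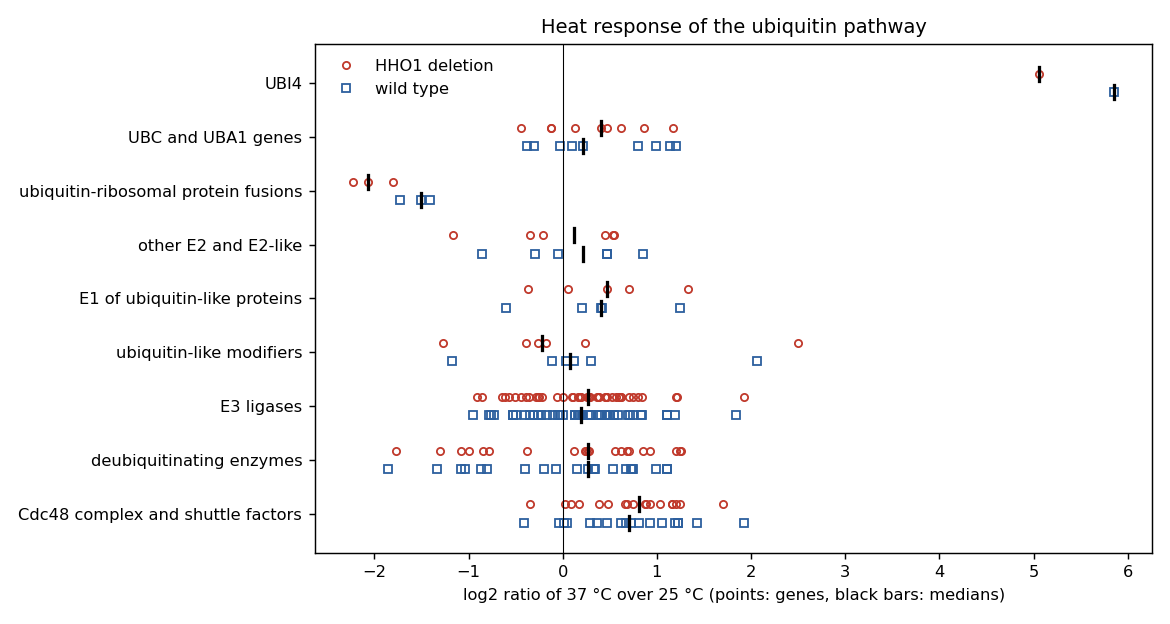
Heat response as log2 of 37 °C over 25 °C (horizontal axis) of UBI4, the other 9 genes and the 7 lists of the ubiquitin pathway (rows), in the HHO1 deletion (circles) and the wild type (squares), with black bars for medians. The 3 genes of ubiquitin fused to ribosomal proteins lie between -2.23 and -1.41, opposite to UBI4 at 5.06 and 5.86.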

How the data were processed

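Agilent 2-colour arrays measured 1 sample per group. Spot intensities in the deposited files came from Feature Extraction 9.1.1.1, per the file headers; the processed intensity had been background-subtracted and dye-normalised there. The log10 ratio of those signals, per the file headers red over green, served to set the direction of the authors' deposited table of log2 ratios (correlations of 0.733 to 0.970 over spots), for which the submitters' processing notes name limma; neither source names its centring.

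Intensities were corrected in R 4.3.3 with limma 3.58.1 by normexp with an offset of 50, which draws dim ratios towards 0, and loess was fitted without control spots and outlier flags. Ratios run as sample over the wild-type RNA from 25 °C on that array. A gene's value is the mean of those spots that were well above background in Cy3 or Cy5 on each array compared. The number of arrays, 1 per group, limits precision. The calculation was tested on simulated arrays, and 10 alternatives were run. Alternatives that change only the filter on dim spots leave a gene unchanged where all its spots are well above background in both channels.

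Of 6256 genes, 5756 were named through the R64 gene table; probe positions and sequences are not reported. Named genes were all 10 members, HHO1, all genes of lists of up to 6, up to 4 per comparison of longer lists with the largest ratios past the size rule, and the 3 nearest to UBI4; SSM4, HRD1 and CUE1 were added after values were seen. Members and lists were chosen with earlier results of these data known.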

Additional observations from a re-analysis of the deposited data

Results flagged for a closer look

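UBC6 and UBC13 had heat responses of opposite sign in the strains. In the deletion strain UBC6 was at 0.13, against -0.03 for the wild type, a difference of 0.15, and UBC13 was at -0.12, against 0.09 for the wild type, a difference of -0.21. With 1 array per group the differences were not tested, and all 4 responses lay far below the size rule. In the same-dye comparison the difference of UBC13 was 0.25, and with median centring, under which all genes had a median difference of -0.34, that of UBC6 was -0.38.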

How the results depend on the processing

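No paired analysis was possible, as each condition is 1 array. Of the single values of the 10 genes recomputed under 10 alternatives, 333 either held a call, whatever the size of their move, or had none and stayed within the SD between spots (0.1 where a gene had a single spot), 131 moved further without passing the size rule, 24 newly passed it, 4 no longer passed it, and 1 called value changed sign, UBI4 at 37 °C between strains, at 1.19 in the same-dye comparison. The rule of 0.58 leaves every value unchanged. It gave 50 of the 333, and the calls it adds are not among the 24. No filter on dim spots gave 49, spots well above background in both channels 46 and the brightest spot 47. These 3 choose among the same spot ratios, so much of the 333 was fixed in advance. Of the 10 genes, 2 rose in the deletion strain, and 1 did without background subtraction and with median centring and 4 at a rule of 0.58; 1 fell without an offset, in the deposited table and with signals as processed by the scanner. In the wild type 3 rose, and 5 did without an offset, with the scanner's signals, in the deposited table and at a rule of 0.58; 1 fell without an offset, with the scanner's signals and with median centring. At 25 °C 1 was higher with median centring, under which 559 of 5984 genes were higher, against 3 in the main setting. At 37 °C 1 was lower, against 0 in the same-dye comparison and without background subtraction, 3 under median centring and 2 in the deposited table; 1 was higher with the scanner's signals, with median centring and in the same-dye comparison. For the difference of responses 1 was higher with the scanner's signals, and 2 were lower with median centring, in the deposited table and at a rule of 0.58. Over all genes, median centring called 605 of 5895 lower at 37 °C, against 24 in the main setting, and 270 of 5872 lower for the difference, against 9, and the rule of 0.58 called 1269 of 5918 higher in the deletion strain's heat response, against 682, and 1288 of 5974 in the wild type's, against 692. The cause of these changes was not tested. UBC11 made up the genes counted as fallen in the heat responses. It was also the gene higher at 25 °C with median centring and for the difference with the scanner's signals. At 37 °C UBC11 was the gene higher with median centring. In the deposited table it was among those lower at 37 °C and for the difference, so its sign changed with the setting. Its signal near background limits all these calls of UBC11. It had values in 7 to 9 of 9 settings. Among all genes past the rule, the share of higher ones was 42.2% in the deletion strain's heat response (31.9% with median centring), 41.4% in the wild type's (52.5% with the scanner's signals), 75% at 25 °C, 31.4% at 37 °C and 71% for the difference of responses. Median centring gave 98.9%, 49.4% and 15.6% for these last 3, the scanner's signals 24.8%, 7.86% and 7.89%, the deposited values 27.3% at 25 °C and 8.7% for the difference, the same-dye comparison 0%, 71.8% and 83.9%, and no background subtraction 50%, 62.5% and 81.8%. For HHO1 and listed genes past the rule, 456 recomputed values still passed, 24 no longer did, and none changed sign. As for the 333, much of the 456 was fixed in advance.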
